A study of Danio rerio with 3 samples.

Results

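The oligos described here are those on a zebrafish expression array whose clone title names a protein of the mitochondrial respiratory chain encoded in the nucleus. The rule reads the title and uses no measured value, although the topic was taken up with earlier results of these data known. A title had to contain NADH dehydrogenase, cytochrome c oxidase, ubiquinol, succinate dehydrogenase or ATP synthase. Of 142 oligos with such a title, 24 came from the mitochondrial genome record and were left out, which gave 118 members among 33772 distinct oligos. By title, 23 belonged to complex I, 3 to complex II, 7 to complex III, 19 to complex IV and 54 to complex V. The same words also took 7 oligos for assembly factors of complex IV and 5 for the vacuolar proton pump, which is not part of the chain, and both are kept apart below.

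The respiratory chain lies in the inner mitochondrial membrane. Complexes I and II pass electrons from NADH and from succinate to ubiquinone, complex III passes them on to cytochrome c, and complex IV hands them to oxygen. Complexes I, III and IV pump protons as they do so, and complex V, the ATP synthase, lets the protons flow back through a rotor and makes ATP in its catalytic head. Most subunits are encoded in the nucleus, and fish eggs supply the early embryo with maternal mitochondria.

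FoxH1 morphants were compared with control morphants in 3 hybridisations, on 2-colour arrays printed with oligos of 3 commercial sets (MWG, Compugen and Operon). Each array took RNA from a pool of 50 whole zebrafish embryos injected with a FoxH1 morpholino and from a pool of 50 injected with a control morpholino, all at 40% epiboly, a late blastula stage. FoxH1 belongs to the forkhead transcription factors and partners Smads in the response to Nodal, and a morpholino is a modified antisense molecule used to knock down the protein made from its target mRNA. The design text describes 3 independent rounds with 1 dye swap, so n = 3 pairs of pools, and the control morphants went through the same injection and culture. Whole-embryo pools cannot tell fewer cells of a type from less RNA per cell. Of 10 oligos for genes active at this stage (ntl, gsc, pou2 and oep), 9 were above background in both columns on all arrays. For genes of later cell types (cmlc2, rho, cryaa, hbaa1 and related rhodopsins) the count was 7 of 13, so the oligos of later genes were not all near background.

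Values are log2 ratios of morphant over control, normalised for intensity within each array, where 0 means equal signal. On arrays 1, 2 and 3 the median spot gave 639.0, 448.2 and 202.6 units of intensity for control RNA, against 256.9, 189.2 and 488.3 for morphant RNA. The direction of array 3, the dye swap, is not fully settled. The labels give the dyes but not whether the columns of that array follow the dye or the sample. Local background was higher in red than in green at 5.50% of spots on array 1, 5.15% on array 2 and 94.1% on array 3. Green-over-red ratios of 132 random control spots correlated at r = 0.93 between arrays 1 and 2 and at r = -0.73 between their mean and array 3. For 35 Arabidopsis control spots the values were r = 0.66 and r = -0.89. Both are descriptions across spots that share the arrays. Columns were therefore read by sample, with green as the morphant on every array. Values with the sign of array 3 turned are given for the members together, for each complex, for the oligos described with a test and for some others. Counts by subunit, brightness and supplier, and the medians and counts of the other mitochondrial lists, are given only as read by sample.

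Of the 118 members, 101 gave a usable value on every array and were tested. The other 17 were usable on 0 arrays (4 oligos), 1 array (4) or 2 arrays (9), and they entered no count below. Among the tested members, 96 were more than 2 background SDs above background in both columns on all arrays. Brightness was modest: 50 of the 101 were brighter than the median random control spot, whose mean log2 intensity was 8.78. By complex these were 33 of 47 oligos in V, 6 of 20 in I and 4 of 15 in IV. MWG supplied 87 of the members, Operon 26 and Compugen 5. Most titles describe a contig or EST by its resemblance to a protein of another species, mainly mammals, so subunit names are those of the homologue. Several contigs carry the same title (16 for the beta subunit of ATP synthase and 10 for alpha), and how many transcripts they stand for is not known. Oligos are therefore not replicates.

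The ATP synthase oligos stood mostly above control in the morphants, whereas the other complexes were spread around 0. The transcripts of the mitochondrial genome, which are not members and are described last, also stood mostly above control. Complex V had a median log2 ratio of 0.44 over 47 tested oligos, a 1.36-fold level, and 24 of the 47 were higher than control on all 3 arrays with 0 lower. Over all 26247 tested oligos the median was 0.02, with 17.0% higher and 17.6% lower on all 3 arrays. The alternative settings described at the end that changed the complex V median all lowered it, to between 0.16 and 0.41. Complex IV had a median of -0.09 over 15 oligos, with 1 higher and 5 lower on all 3 arrays. Complex I had a median of 0.11 over 20 oligos, with 4 higher and 2 lower. Complexes II and III, with 3 and 6 tested oligos, had medians of 0.12 and 0.11 and no oligo of 1 sign on all arrays. The 101 members together had a median of 0.16, with 31 higher and 7 lower on all arrays.

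No member passed limma's test with Benjamini-Hochberg adjustment at 0.05, and neither did any of the 26247 oligos (0%, lowest adjusted p = 0.282). At an unadjusted p under 0.05 there were 13 members, 11 higher and 2 lower, where 11.4% of all oligos reached that level. All values below are therefore measurements that did not pass. Ratios of the members correlated at r = 0.80 between arrays 1 and 2, at -0.45 between arrays 1 and 3 and at -0.61 between arrays 2 and 3 (101 oligos on shared arrays, a description). The corresponding values over all tested oligos were 0.82, -0.35 and -0.47. Arrays 1 and 2 had 1 sign and array 3 the other in 47 members (46.5%), near the 49.6% of all oligos.

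With array 3 turned, complex V oligos lay on both sides of control. Their median became 0.16, against -0.04 over all oligos, and 31 of the 47 had means above 0. On all 3 arrays 8 oligos were higher and 11 lower, against 24.8% higher and 24.8% lower over all oligos. The 101 members then had a median of 0.09, with 23 higher and 24 lower. Complex I had a median of -0.09, with 5 oligos higher and 6 lower on all 3 arrays. In this reading 5 of the 101 members passed limma's adjusted test, a smaller share than the 9.53% of all oligos. These were oligos for alpha (DRFRAMEFINDER02693), subunit c (DRFRAMEFINDER12040), complex IV subunit VIIc (DRFRAMEFINDER03019) and complex I CI-B14, all higher, and for NDUFB9, lower. Read by sample, each of these 5 had array 3 opposite to arrays 1 and 2, so their directions hold only in the turned reading. They are named because so few passed, after their values were seen. Without array 3, where dye and treatment cannot be told apart, 21 members passed, against 22.7% of all oligos.

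With columns read by sample, a fit with a term for dye weights arrays 1 and 2 together against the swapped array 3 and balances the dye effect. If the columns of array 3 follow the dye instead, the values of this fit describe the dye effect and not the morpholino. With the dye term, the median of complex V was 0.36 and 43 of 47 oligos lay above 0, where 48.9% of all oligos did. Of the 47, 23 reached an unadjusted p under 0.05, all above 0, against 26.9% of all oligos in either direction. Each oligo's own spread in this fit is the difference between arrays 1 and 2, which share a dye orientation. Its p thus holds no repeat of the swapped array and does not measure spread over all arrays. After adjustment 0 members and 0% of all oligos passed this fit. The median for complex IV was -0.21, with 2 of 15 oligos above 0, and for complex I it was 0.08, with 12 of 20 above 0.

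Complex I, the entry point for NADH, was represented by 16 named subunits and 1 oligo without a subunit name. Its 20 tested oligos ranged from -1.04 to 0.86. The lowest with 1 sign on all arrays was the Operon oligo for Fe-S protein 6 (NDUFS6 in human), an accessory subunit near the NADH-oxidising arm, at -1.41, -1.62 and -0.09 on arrays 1, 2 and 3. Array 3 lay close to 0, and the mean was -1.04 ± 0.83 (SD, n = 3 arrays, limma adjusted p = 0.473), or -0.98 with array 3 turned.

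NDUFA8, another accessory subunit, was at -0.71, -0.79 and -0.33, with a mean of -0.61 ± 0.24 (limma adjusted p = 0.410), or -0.39 with array 3 turned. Its oligo was below control on every array but dim, at a mean log2 intensity of 6.88. The NDUFS6 oligo was at 8.15, and both were dimmer than the median random control spot, at 8.78. Both oligos came from the Operon set, whose 6 complex I oligos had a median of -0.43. The 14 complex I oligos from MWG had a median of 0.22.

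On the higher side, CI-SGDH (NDUFB5), an accessory membrane subunit, was at 0.29, 0.16 and 0.58, with a mean of 0.34 ± 0.22. This sign did not hold with array 3 turned, where the mean was -0.05. Fe-S protein 4 (NDUFS4), an accessory subunit needed for assembly of the complex, was at 0.69, 0.11 and 0.08 with a mean of 0.29 ± 0.34, so its SD exceeded its mean. The contig DRFRAMEFINDER00865, for which the title gives no subunit, was at 0.34, 0.23 and 0.23 with a mean of 0.27 ± 0.06. The limma adjusted p of these 3 was 0.580, 0.675 and 0.611. With array 3 turned, Fe-S protein 4 was at 0.24 and DRFRAMEFINDER00865 at 0.12. All 3 were dimmer than the median random control spot, at 8.78. CI-SGDH was at a mean log2 intensity of 8.17, Fe-S protein 4 at 6.88 and DRFRAMEFINDER00865 at 8.27. With oligos above background in both columns, the mean of Fe-S protein 4 was 0.05.

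Some subunits of complex I had several oligos whose means shared a sign, though their single arrays did not all do so. The 3 oligos for CI-ASHI (NDUFB8), a membrane subunit, had means from -0.55 to -0.06, and averaged -0.35, -0.32 and -0.01 on arrays 1, 2 and 3. The pair for the 24 kDa flavoprotein 2 (NDUFV2), which carries an iron-sulfur cluster, averaged -0.65, -0.55 and 0.44, with array 3 opposite to the others. The NADH-binding flavoprotein 1 (NDUFV1), a bright spot, was at 0.06, 0.07 and 0.36, above control on all arrays. Larger values had opposite signs: the NDUFB9 oligo stood at -1.74 and -2.83 on arrays 1 and 2 and at 2.55 on array 3. That oligo was very dim, with a morphant intensity of 8.2 on array 2 and a control intensity of 9.1 on array 3. CI-B14 (NDUFA6), an accessory subunit, stood at 2.12, 1.49 and -1.02.

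Complex II oxidises succinate and is shared with the citrate cycle. All 3 of its oligos were for the flavoprotein subunit (SDHA), which carries the active site, and all were tested. They stood at -0.33, 0.51 and -0.50 (DRFRAMEFINDER03698), at 0.16, -0.29 and 0.50 (DRFRAMEFINDER03772) and at 0.94, 0.72 and -0.35 (BI887082). Their means were -0.10 ± 0.54, 0.12 ± 0.40 and 0.44 ± 0.69 (SD, n = 3), each smaller than its SD. None was on 1 side of control on all arrays, and the limma adjusted p ran from 0.687 to 0.887. With array 3 turned the means were 0.23, -0.21 and 0.67.

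Complex III had 6 tested oligos, most of them dim, with a median log2 intensity of 6.91 against 8.50 over all oligos. Core protein II (UQCRC2), a structural subunit, was measured by 2 contigs with means of -0.08 and 1.05. The higher of them was at 2.36, 1.41 and -0.60. Core protein I (UQCRC1), the partner of UQCRC2, was at 2.52, -0.19 and -0.11, so its mean of 0.74 ± 1.54 rested on array 1. The Rieske iron-sulfur subunit (UQCRFS1), which hands electrons towards cytochrome c, was at 0.08, -0.39 and 0.88. The small 14 kDa subunit (UQCRB) was at -0.67, -0.63 and 0.80, with array 3 again opposite to the others.

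Cytochrome c oxidase, complex IV, has a catalytic core encoded by mitochondrial DNA, and the oligos here are for the nuclear subunits around it, except that 2 of the 15 tested have titles cut before the subunit and may be for either genome. The lowest member of all was the Operon oligo BQ258932 for subunit VIIc (COX7C), a small membrane subunit, at -1.83, -2.07 and -1.41. It was lower than control on every array, with a mean of -1.77 ± 0.34 (SD, n = 3, limma adjusted p = 0.282, the lowest reached by any oligo), or -0.83 with array 3 turned. Its intensities were 3618.6, 1957.4 and 680.4 in the control columns and 341.7, 163.1 and 686.7 in the morphant columns. The other oligo for VIIc, DRFRAMEFINDER03019 from MWG, was at 2.03, 1.99 and -1.95. The 2 oligos of this subunit thus disagreed on arrays 1 and 2 and shared a sign only on array 3.

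The other complex IV oligos below control on all arrays had smaller values. Subunit VIIa, heart form (COX7A1), was at -0.43, -0.43 and -0.45, nearly equal across arrays, with a mean of -0.44 ± 0.01 (limma adjusted p = 0.450). Subunit VIb (COX6B), which faces the intermembrane space, was at -0.14, -0.40 and -0.39 with a mean of -0.31 ± 0.15 (adjusted p = 0.584). With array 3 turned these means were -0.13 and -0.05. Both oligos were dimmer than the median random control spot, at mean log2 intensities of 8.04 and 7.76. Subunit Vb (COX5B), a matrix-side subunit, was at -0.28, -0.34 and -0.22, and 1 of the 2 oligos for subunit IV isoform 1 (COX4I1) was at -0.09, -0.11 and -0.37. These 4 oligos and BQ258932 were the 5 below control on all arrays. The pair for COX4I1 averaged -0.47, -0.47 and 0.03 on arrays 1, 2 and 3.

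The complex IV oligo above control on all arrays was AI106363, an EST from adult heart, at 0.46, 0.47 and 0.58 with a mean of 0.51 ± 0.07 (limma adjusted p = 0.413), or 0.12 with array 3 turned. It is 1 of the 2 with a cut title, and at a mean log2 intensity of 7.95 it was dimmer than the median random control spot. The 3 tested oligos for subunit Va (COX5A), which faces the matrix, had means of -0.13, -0.09 and 0.23, and the last stood at 0.93, 2.07 and -2.30. Both oligos for subunit VIa (COX6A) had means above 0, at 0.04 and 0.16, with array 3 negative. Turning array 3 moved the median of complex IV from -0.09 to 0.14, with 6 of the 15 oligos higher and 1 lower on all arrays. Over all oligos the turned median was -0.04, with 24.8% higher and 24.8% lower.

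In ATP synthase the oligos above control covered the catalytic head, the rotor and the stalk. Means were above 0 in 39 of the 47 tested oligos of the complex. The same held for 51.4% of all tested oligos and for 6422 of 11532 from MWG. The beta subunit (ATP5F1B) holds the catalytic sites of the head. Of its 16 contigs 12 were tested, 10 had means above 0 and 8 were higher on all 3 arrays. They averaged 0.52, 0.56 and 0.35 on arrays 1, 2 and 3, with a mean of 0.48 ± 0.11 (SD over arrays).

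The highest beta contig with 1 sign, DRFRAMEFINDER12390, was at 1.03, 0.85 and 0.69, with a mean of 0.86 ± 0.17 (SD, n = 3, limma adjusted p = 0.315), or 0.40 with array 3 turned. Its intensities were 3790.1, 1832.6 and 608.6 in the control columns and 2321.3, 1017.8 and 2658.2 in the morphant columns. The ratio of those columns must be read against the array medians above. DRFRAMEFINDER08945 followed at 0.86, 1.09 and 0.25, with a mean of 0.73 ± 0.44 (adjusted p = 0.433), or 0.57 with array 3 turned, and was least above control on array 3. The lowest beta contigs, DRFRAMEFINDER05788 and DRFRAMEFINDER05754, both had means of -0.02 with mixed signs. Contigs with this 1 title thus ran from -0.02 to 0.86, within the -0.26 to 1.08 of the whole complex.

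The alpha subunit (ATP5F1A) alternates with beta in the head. Of 9 tested contigs 8 had means above 0 and 6 were higher on all 3 arrays. DRFRAMEFINDER07094 was at 0.68, 0.62 and 0.57, nearly equal on the 3 arrays. DRFRAMEFINDER11098, the brightest of them, was the 1 alpha contig with a mean below 0, at -0.30, -0.49 and 0.02. The value farthest from the rest belonged to DRFRAMEFINDER02693, at 3.26 and 3.26 on arrays 1 and 2 and -3.37 on array 3, so that its mean of 1.05 came with an SD of 3.83. With the dye term its value was -0.05. The 9 alpha contigs averaged 0.67, 0.70 and -0.18 on arrays 1, 2 and 3, and the other 8 without this contig 0.35, 0.38 and 0.22.

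The ESTs AI964238 and AI964237, whose titles end after the letters al, had means of 0.57 and 0.79 and averaged 0.97, 0.90 and 0.17 on arrays 1, 2 and 3. AI964237 was near the scanner ceiling on 2 arrays, which limits its ratio. A contig similar to a bovine entry named atpa1, DRFRAMEFINDER07752, was at 0.73, 0.61 and 0.34.

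The gamma subunit (ATP5F1C) is the shaft that turns inside the head. All 7 of its oligos were tested, 6 had means above 0 and 4 were higher on all arrays. They averaged 0.27, 0.27 and 0.66 on arrays 1, 2 and 3. The Operon oligo AI958755 was at 0.40, 0.22 and 0.69, and the MWG contig DRFRAMEFINDER05674 at 0.51, 0.29 and 0.60. Both were above control on every array, but with array 3 turned their means were -0.02 and 0.06. The highest mean of the complex, 1.08, was that of DRFRAMEFINDER05686, at 2.02, 1.60 and -0.38.

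Subunit b (ATP5PB) forms the outer stalk that holds the head still. Of its 5 tested contigs 4 had means above 0 and 2 were higher on all arrays. DRFRAMEFINDER07120, a dim spot, was at 1.35, 0.46 and 0.55, with a mean of 0.78 ± 0.49 (SD, n = 3, limma adjusted p = 0.434), or 0.42 with array 3 turned, and array 1 gave most of it. DRFRAMEFINDER12175 was at -0.89, -0.52 and 1.80, with opposite signs.

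Subunit c builds the ring in the membrane that protons turn. The same zebrafish transcript, AF311603, was printed by all 3 suppliers. The Operon oligo was at 0.75, 0.50 and 0.44 and the MWG oligo at 0.38, 0.44 and 0.75. The Compugen oligo, the dimmest of them, was at -0.01, -0.39 and 1.01. Their means were 0.57 ± 0.16, 0.52 ± 0.20 and 0.20 ± 0.73 (SD, n = 3), so the Operon and MWG oligos were above control on every array and the Compugen oligo was not. With array 3 turned the means were 0.27 (Operon), 0.02 (MWG) and -0.47 (Compugen). Of the 6 tested oligos for subunit c, 5 had means above 0.

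The remaining ATP synthase titles lay nearer 0. Chain g (ATP5MG), a membrane subunit, was at -0.33, -0.01 and 0.21, and factor B, a coupling factor, at 0.39, 0.26 and -0.03. Without the alpha and beta titles, 9 of 24 complex V oligos were higher on all arrays, with a median of 0.19. The atpa1 contig DRFRAMEFINDER07752 was kept among these 24 and was 1 of the 9. With 1 value per subunit title, the median of complex V was 0.33.

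Brightness and supplier differed between complex V and the rest, and their part in the result was not tested beyond the following values. The complex V oligos had a median log2 intensity of 9.18, against 8.50 over all oligos. Oligos were split into 4 equal groups by brightness, and the share higher on all 3 arrays was 11.1%, 16.1%, 19.5% and 21.2% from the dimmest to the brightest, and the share lower in the 3 brighter groups was 15.7%, 20.4% and 23.2%. In complex V these counts were 2 of 5, 1 of 8, 8 of 13 and 13 of 21, with 0 lower in any group. Of the 33 complex V oligos brighter than the median random control spot, 20 were higher on all arrays.

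Over all tested oligos, MWG had a median of 0.11, 0.15 and -0.16 on arrays 1, 2 and 3, Compugen -0.05, -0.11 and 0.12, and Operon -0.17, -0.27 and 0.18. MWG thus lay slightly above and Operon slightly below 0 on arrays 1 and 2, with the reverse on array 3. Within MWG, 21 of 40 complex V oligos were higher and 0 lower on all arrays, where 16.4% of all MWG oligos were higher and 17.5% lower. The 4 Operon and 3 Compugen oligos of complex V had medians of 0.30 and 0.57.

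The assembly factors insert heme and copper into cytochrome c oxidase. Of their 5 tested oligos none was on 1 side of control on all arrays, and the median was -0.21. With array 3 turned the median was -0.32, with 1 oligo higher and 3 lower on all arrays, where 24.8% of all oligos were higher and 24.8% lower. The 3 oligos for COX15, which makes heme A, had means from -0.69 to -0.02 and averaged -0.38, -1.15 and 0.61. COX11 and COX17, which deliver copper, had means of -0.58 ± 1.18 and 0.14 ± 0.33. Some of these values rest on very dim spots. The lowest COX15 oligo, DRFRAMEFINDER05892, had a control intensity of 1.3 on array 3, and COX11 a morphant intensity of 3.7 on array 1. The vacuolar pump, which acidifies endosomes and vacuoles with ATP, had 5 tested oligos with a median of 0.20. Of these, 2 were higher on all arrays, as were 17.0% of all oligos. Its 16 kDa proteolipid was at 0.36, 0.41 and 0.04, with a mean of 0.27 ± 0.20 (limma adjusted p = 0.646), or 0.25 with array 3 turned. In that reading the 5 pump oligos had a median of -0.04, with 0 higher and 2 lower on all arrays.

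Other oligos for mitochondrial functions were chosen by title in the same way. Their counts stand beside 17.0% higher and 17.6% lower on all 3 arrays over all tested oligos. Citrate cycle and pyruvate dehydrogenase enzymes, 77 tested, had a median of 0.09, with 16 (20.8%) higher and 11 (14.3%) lower on all arrays. A contig similar to human dihydrolipoamide acetyltransferase, a pyruvate dehydrogenase core enzyme, was lowest with 1 sign at -1.16 ± 1.01, and one similar to the dihydrolipoamide dehydrogenase-binding protein was highest at 1.13 ± 0.85. Mitochondrial ribosomal proteins, 9 tested, had a median of -0.23, with 0 higher and 2 lower, and the oligo for S2 was at -0.86, -0.70 and -1.57. Import machinery, 11 tested, had a median of 0.03, with 2 higher and 3 lower, from a TIM subunit at -1.02 ± 1.31 to TOM40 at 0.17 ± 0.05. With array 3 turned the mean of the S2 oligo was -0.0008, against -1.04 as read by sample. The TIM and TOM40 oligos were then at -0.97 and 0.03, and the dihydrolipoamide contigs at -1.09 and 1.03.

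Carriers, channels and cytochrome c, 37 tested, had a median of 0.06, with 5 higher and 5 lower on all arrays (13.5% each). The contig DRFRAMEFINDER00345, similar to the rat ADP/ATP carrier ANT2, which exchanges the product of ATP synthase with the cytosol, was at -4.28, -3.68 and -3.36. It was far below control on every array, with a mean of -3.77 ± 0.47 (SD, n = 3, limma adjusted p = 0.282), or -1.53 with array 3 turned. A contig similar to the rat carrier bmcp1 was above control on all arrays, with a mean of 1.09 ± 0.38 (adjusted p = 0.322), or 0.60 with array 3 turned. The 4 tested oligos for regulators and membrane scaffolds had a median of 0.02, with 1 higher and 0 lower on all arrays. The higher one, nuclear respiratory factor 1, a transcription factor for many respiratory genes, was at 0.50, 0.14 and 0.99, above control on all arrays, but its mean was -0.11 with array 3 turned.

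Glycolysis enzymes, which make ATP in the cytosol, had a median of 0.06 over 95 tested oligos. Of these, 21 (22.1%) were higher and 18 (18.9%) lower on all arrays, against 17.0% and 17.6% of all tested oligos. An oligo similar to human phosphoglycerate kinase 1 was at 2.06, 1.84 and 1.87 (mean 1.92 ± 0.12, limma adjusted p = 0.282, or 0.68 with array 3 turned), and a contig similar to mouse hexokinase 1 at -2.78, -3.28 and -0.20. The transcripts of the mitochondrial genome, 23 tested, had medians of 0.20, 0.22 and 0.29 on arrays 1, 2 and 3. Of these, 22 had means above 0, against 51.4% of all tested oligos. On all arrays 9 (39.1%) were higher and 0 lower, against 17.0% and 17.6% of all tested oligos. No oligo passed limma's adjusted test. Read by sample, standing mostly above control was thus not particular to complex V. The mitochondrial genome oligos were bright, at a median log2 intensity of 12.86, against 9.18 in complex V and 8.50 over all oligos. The part of brightness was not tested.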

How the data were processed

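Each array's table holds mean spot intensity values for a red and a green column, which the authors had already background-subtracted, with the local background intensity and its SD. The deposited ratio is red over green divided by 1 constant per array, and it held within 1% at 99.4% or more of spots. The deposited quality score marks poor spots with 0 (15.4%, 15.4% and 13.1% of oligo spots). The authors' deposited log2 matrix is minus log2 of that ratio, centred near 0 (medians -0.03, -0.01 and 0.02) and not corrected for intensity, with the direction of array 3 unsettled as described above. Neither scanner nor software is named in the sources used here. The design text speaks of amplified RNA, the labels' protocol of total RNA.

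Log2 green over red was normalised by loess (span 0.3) within each array, with control and empty spots left out. Spots of an oligo were averaged. An oligo was tested if its quality was above 0 and both intensities were above 0 on all 3 arrays, and if the red or the green signal exceeded 2 background SDs on 2 or more arrays. Models were fitted with lmFit and eBayes of limma 3.58.1 under R 4.3.3, two-sided and without a dye term, and p-values were adjusted by Benjamini-Hochberg over all 26247 oligos. Without a dye term, part of each dye effect stays in the mean. The scripts were tested on simulated ratios with changes added to 200 oligos. With the spread between arrays 1 and 2, which share a dye orientation, the adjusted test recovered 62 of 200 at a log2 change of 1. At a change of 2 it recovered 132 of 200, and the false calls were 1 and 12. With the spread of all 3 arrays, the swapped one included, it recovered 0 of 200 at a log2 change of 1 and 0 of 200 at 2. That no oligo passed therefore does not show that no oligo changed. Tables were made with Python 3.11.15, pandas 2.3.3 and numpy 2.4.6.

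Named oligos are those with 1 sign on all arrays that were lowest or highest by mean. These were up to 3 each in complexes I, III, IV and V, and 1 each in the other lists. Every complex II oligo was also named, and up to 6 subunits whose 2 or more oligos had means of the same sign. One item under this rule is not reported here. Others were named after their values were seen. Members, lists and the reading of array 3 were chosen with earlier results of these data known. Alternatives covered the sign of array 3, a dye term, background, normalisation, filters, the deposited log2 values, the test and leaving out each array. Precision is limited by there being 3 arrays.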

Additional observations from a re-analysis of the deposited data

How the results depend on the processing

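The count of 0 oligos past an adjusted p of 0.05 stayed at 0 except with array 3 turned (2502 oligos, 5 of them members) and when arrays were left out (0 to 5962 oligos and 0 to 21 members, the upper end without replicate 3). The one-sample t-test without moderation also gave 0 after adjustment. The cause was not tested. Members lower on all arrays numbered 24 with array 3 turned, where 24.8% of all oligos were lower, and 13 with no background correction. With 1 array left out, 9 to 31 members were lower and 34 to 54 higher, but then only 2 arrays had to share a sign. For no background correction and for leaving out an array, shares over all oligos are not given here. Those counts are thus not set against other oligos.

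The median of all members (0.16) was 0.093 with array 3 turned, 0.20 with the deposited log2 values, 0.21 with median centring, 0.072 with no background correction and 0.15 to 0.22 with 1 array left out. For complex I (0.11) it was -0.087 with array 3 turned, -0.020 with oligos above background in both columns, 0.011 with the deposited values, 0.017 with median centring, 0.045 with no background correction and 0.03 to 0.15 with 1 array left out. For complex IV (-0.09) the sign turned with array 3 turned (0.14), without replicate 3 (0.16) and with median centring (0.0048). For complex II (0.12) it ran from 0.021 with no background correction to 0.29 without replicate 2. For complex III (0.11) it was 0.42 with array 3 turned, 0.018 with no background correction, 0.064 with loess within print-tip blocks and 0.14 to 0.30 with 1 array left out. For complex V (0.44) it was 0.16 with array 3 turned, 0.36 with a dye term, 0.23 with no background correction, 0.38 with normexp background, 0.38 with oligos above background in both columns, 0.33 with poor spots kept, 0.33 with oligos usable on at least 2 arrays, 0.33 with 1 value per subunit and 0.35 to 0.39 with 1 array left out. Over the 9 alternatives that kept all arrays and the sign of array 3, complex V stayed between 0.23 and 0.41, below the main 0.44. The median over all oligos ran from -0.01 to 0.03 there. In those with a count, 23 to 27 complex V oligos were higher and 0 to 4 lower on all arrays. No share over all oligos is given beside these counts.

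Among named oligos, CI-SGDH (DRFRAMEFINDER11100) was at -0.045 with array 3 turned. The complex II oligo DRFRAMEFINDER03698 was at 0.23 with array 3 turned and ran from -0.41 without replicate 2 to 0.093 without replicate 3, and DRFRAMEFINDER03772 at -0.21 with array 3 turned and -0.063 without replicate 3. With no background correction, 13 of the 16 named members were more than 1.5 times nearer 0, among them NDUFS6 at -0.35, NDUFA8 at -0.20, DRFRAMEFINDER07120 at 0.13, AI106363 at 0.13 and DRFRAMEFINDER08945 at 0.35. Without replicate 3, where dye and treatment cannot be told apart, 6 of the 16 passed the adjusted test, against 22.7% of all oligos. Apart from those of complex II, the 16 were chosen by their ratios on these same arrays. The choice itself raises their share, so it cannot be compared with that of all oligos. Every test was on the ratio within a pair of pools, so the pairing is already in it.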
